A study of Mus musculus with 3 samples.

Results

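The cells described here were the S-phase cells of 3 mouse gliomas, 199 of the 9286 cells that passed the cell filter (500 or more genes detected, with mitochondrial UMIs making up no more than 20%, a UMI being a molecular tag that marks 1 captured transcript). A cell was chosen when its summed UMIs of 6 genes of DNA replication (Rrm2, Tk1, Dtl, Clspn, Hells and Uhrf1, called the S sum below) reached 8 per 10000 of its UMIs. Its sum of 7 genes of G2 and mitosis (Ube2c, Cenpa, Cenpf, Ccnb1, Cdc20, Tpx2 and Hmmr, the G2/M sum) had to lie under 5, and its sum of 6 myeloid genes (C1qa, C1qb, C1qc, Tyrobp, Fcer1g and Ctss) under 15. They were set against 2 classes of the same tumours: 5468 comparison cells (S sum under 2, G2/M sum under 5, myeloid sum under 15) and 1521 G2/M cells (G2/M sum of at least 8, myeloid sum under 15).

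All 3 tumours carried the same alleles, given in the labels as H3f3aK27M, PdgfraD842V and Trp53R270H, and grew in mice heterozygous for the reporter allele Gt(ROSA)26Sortm4(ACTB-tdTomato,-EGFP), of a background labelled B6.129(Cg). The constructs were delivered by electroporation of the brain 1 or 2 days after birth with MADR, a method that exchanges a cassette at a chosen genomic site by means of a pair of recombinases. Tumours 1, 2 and 4 were taken at postnatal days 150, 106 and 149, and their GFP-positive cells were sorted and profiled with a droplet-based 3′ kit. There was 1 library per animal and no tumour of another genotype, so a difference between tumours cannot be told apart from one of age or library, and the labels do not say which promoter drives the constructs or which cells of the brain took them up.

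During S phase a cell copies its DNA. Origins are licensed in G1, when the loading factors Cdc6 and Cdt1 place the Mcm2 to Mcm7 helicase on DNA. At the G1/S boundary, cyclin E and its kinase release E2F transcription factors from the RB family, and E2F drives the genes of licensing, the replication fork and nucleotide supply. Later, in G2, genes of mitosis rise from promoters that often carry CCAAT boxes and the CHR element, which the DREAM and MuvB complexes bind. Gliomas with the K27M change in histone H3 are known for cells that resemble oligodendrocyte progenitors, and for cycling cells among them.

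The promoters of a few of these genes are printed as examples of the letters counted below in each gene list. Each window runs from 250 bases before to 50 bases after the start of a RefSeq transcript (GRCm38.p6), read 5′ to 3′ on the strand of the gene. In the first 4, capitals mark any of the letters TTTCCCGC, TTTCGCGC, TTTGCCGC and TTTGGCGC, forms of the E2F motif, on either strand. Hells, a chromatin remodeller, was among the genes that chose the cells. Cdc6, Mcm5 and Mcm6 are licensing genes that were not used in the choice.
Hells promoter, chr19:38930740-38931039, plus strand: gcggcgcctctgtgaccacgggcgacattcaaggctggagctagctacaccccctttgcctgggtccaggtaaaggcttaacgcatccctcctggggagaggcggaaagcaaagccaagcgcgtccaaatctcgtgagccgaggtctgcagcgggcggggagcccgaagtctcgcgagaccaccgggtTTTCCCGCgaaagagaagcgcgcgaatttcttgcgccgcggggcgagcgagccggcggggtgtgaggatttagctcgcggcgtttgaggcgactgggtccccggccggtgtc
Cdc6 promoter, chr11:98907901-98908200, plus strand: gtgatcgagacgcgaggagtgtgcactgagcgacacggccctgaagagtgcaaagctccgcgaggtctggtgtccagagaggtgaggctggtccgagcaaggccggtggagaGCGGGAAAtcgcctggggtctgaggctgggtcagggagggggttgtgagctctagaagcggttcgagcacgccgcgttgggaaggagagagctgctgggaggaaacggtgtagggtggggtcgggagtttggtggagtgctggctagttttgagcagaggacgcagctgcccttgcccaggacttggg
Mcm5 promoter, chr8:75109259-75109558, plus strand: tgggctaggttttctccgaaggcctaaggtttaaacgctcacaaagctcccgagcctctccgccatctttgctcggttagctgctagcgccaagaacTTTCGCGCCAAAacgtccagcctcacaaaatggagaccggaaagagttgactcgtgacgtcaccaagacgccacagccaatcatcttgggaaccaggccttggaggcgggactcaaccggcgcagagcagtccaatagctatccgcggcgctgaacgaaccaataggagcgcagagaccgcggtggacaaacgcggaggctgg
Mcm6 promoter, chr1:128359656-128359955, minus strand: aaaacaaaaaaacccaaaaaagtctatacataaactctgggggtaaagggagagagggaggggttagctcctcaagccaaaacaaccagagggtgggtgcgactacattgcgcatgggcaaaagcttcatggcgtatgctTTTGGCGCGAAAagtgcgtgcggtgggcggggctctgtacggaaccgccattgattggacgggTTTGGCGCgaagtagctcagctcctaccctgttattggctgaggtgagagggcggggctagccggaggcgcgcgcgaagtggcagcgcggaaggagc
The runs of 12 capitals in Mcm5 and Mcm6 each hold 2 overlapping matches. For contrast, the promoters of Ccnb2, a cyclin of mitosis, and Top2a, the topoisomerase that untangles replicated DNA, are shown with CCAAT and the CHR letters TTTGAA in capitals, on either strand.
Ccnb2 promoter, chr9:70421505-70421804, minus strand: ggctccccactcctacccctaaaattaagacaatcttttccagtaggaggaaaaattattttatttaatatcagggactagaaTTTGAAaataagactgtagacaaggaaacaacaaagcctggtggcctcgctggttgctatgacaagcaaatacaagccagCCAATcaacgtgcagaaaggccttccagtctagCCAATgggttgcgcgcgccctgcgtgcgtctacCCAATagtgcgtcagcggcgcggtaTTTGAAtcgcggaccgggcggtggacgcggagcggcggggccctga
Top2a promoter, chr11:99024140-99024439, minus strand: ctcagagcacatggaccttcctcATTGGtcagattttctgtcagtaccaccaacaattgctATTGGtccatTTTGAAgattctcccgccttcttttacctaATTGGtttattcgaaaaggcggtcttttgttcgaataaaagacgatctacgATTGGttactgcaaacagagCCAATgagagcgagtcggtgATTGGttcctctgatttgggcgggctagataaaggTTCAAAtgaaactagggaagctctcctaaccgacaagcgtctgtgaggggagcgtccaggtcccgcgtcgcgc
The Ccnb2 window held 3 CCAAT matches and 2 TTTGAA matches, and the Top2a window 6 and 2.

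The libraries of tumours 1, 2 and 4 held 47120617, 15231673 and 53551127 UMIs in 3386, 1632 and 4624 barcodes, of which 6, 20 and 11 were shared by tumours 1 and 2, 1 and 4, and 2 and 4. Of these shared barcodes 0, 2 and 1 belonged to an S-phase cell.

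S-phase cells were found in every tumour, but unevenly. They made up 73 of 3361 cells in tumour 1 (2.17%, exact Clopper-Pearson 95% interval 1.71% to 2.72%). In tumour 2 they were 12 of 1548 cells (0.775%, 0.401% to 1.35%), and in tumour 4 they were 114 of 4377 (2.60%, 2.15% to 3.12%). Tumour 2 had the lowest share, and its interval did not reach those of the other two, and the intervals cover counting error only. G2/M cells were also least frequent in tumour 2, with 677 cells (20.1%) in tumour 1, 77 cells (4.97%) in tumour 2 and 767 cells (17.5%) in tumour 4. Counting only the cells under the myeloid limit, the shares were 2.28% (1.79% to 2.86%), 1.19% (12 of 1006, 0.618% to 2.07%) and 2.66% (2.20% to 3.18%) in tumours 1, 2 and 4, and the intervals of tumours 1 and 2 then overlapped.

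No gap in the S sum set the S-phase cells apart. Between them and the comparison cells lay 408, 39 and 462 cells of tumours 1, 2 and 4 with an S sum from 2 to under 8 and a G2/M sum under 5. A further group reached the S sum but also the G2/M limit: without that limit, 203, 21 and 296 cells would have been taken. Just under the threshold, at an S sum of 7 to 8, were 58 cells with 990 CPM (UMI counts scaled to a common total for each class of cells) of licensing genes outside the rule, and just above it, at 8 to 9, were 45 cells with 1325. Each S-phase cell had UMIs of at least 2 of the 6 S genes. The median UMIs per cell were 13686, 4767.5 and 9373 in S-phase cells against 10963.5, 8361 and 9105 in comparison cells of tumours 1, 2 and 4, so the 12 cells of tumour 2 were shallower than their reference.

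**Figure D1:**
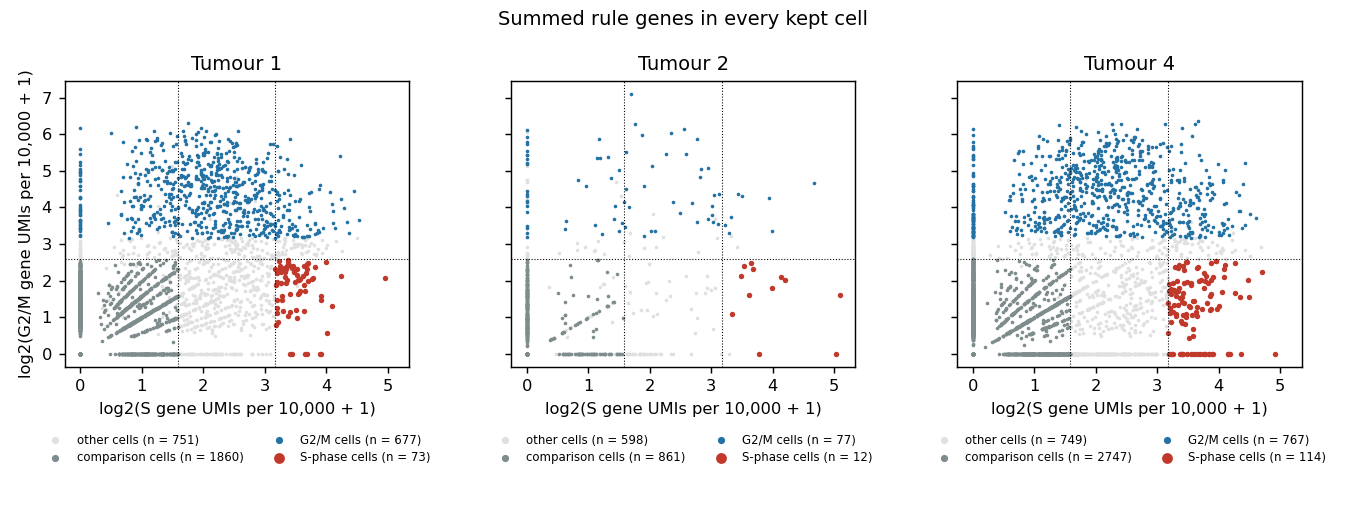
Summed UMIs of the 6 S genes (x axis) and the 7 G2/M genes (y axis), per 10000 UMIs of each cell, as log2(sum + 1), with 1 point per kept cell and 1 panel per tumour. Dotted lines are the limits of 2 and 8 (x) and 5 (y), and the S-phase cells at the lower right (73, 12 and 114) join the comparison cells through cells of intermediate S sum.

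The 6 S genes chose the cells, so their levels are a description. Rrm2, the regulated subunit of ribonucleotide reductase, was at 321, 576 and 322 CPM in the S-phase cells of tumours 1, 2 and 4, and at 12.1, 2.36 and 5.24 in the comparison cells. Dtl, which targets Cdt1 for destruction during replication, was at 260, 413 and 272 against 11.6, 3.27 and 12.8. Uhrf1, which recruits DNA methylation to new DNA, was at 104, 225 and 144 against 7.03, 1.80 and 5.62. When each cell's UMIs were split at random and the cells were chosen on one set, the S sum in the other set was 8.98, 12.2 and 9.29 per 10000 in S-phase cells. It was 0.668, 0.191 and 0.513 in comparison cells, below the S-phase value of every tumour.

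Markers of lineage were set beside the label glioma. Sums of Pdgfra, Cspg4, Olig1, Olig2 and Sox10, taken here as progenitor markers, reached 5 per 10000 in 71 of 73, 10 of 12 and 111 of 114 S-phase cells. So did 92.3%, 77.0% and 96.9% of comparison cells, so this sum was not particular to S-phase cells. In tumour 2 it was also common in a reference made up mostly of cells with myelin RNA, so it did not single out progenitors there. Sums of the myelin genes Mag, Mog, Mobp, Mal and Ermn reached 5 in 1, 3 and 7 of them. In the comparison cells the myelin sums were reached by 5 of 1860, 638 of 861 (74.1%) and 213 of 2747 cells, so in tumour 2 the reference consisted mostly of cells with myelin RNA. That difference touches every result below that includes tumour 2, and for most lists the counts against comparison cells are therefore also given with both classes limited to cells at or above the progenitor sum and below the myelin sum (the lineage limits), which left 70, 7 and 104 S-phase cells. Of 12 further myeloid markers, the summed level was 102, 263 and 101 CPM in S-phase cells and 144, 320 and 116 in comparison cells. The T and NK cell genes were at 0 in the S-phase cells of tumours 1 and 4 and at 25.03 in tumour 2, which is 2 UMIs. As a background, 2 of 161, 1 of 542 and 0 of 88 cells at or above the myeloid limit reached the S sum.

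Against the comparison cells, most genes of DNA replication were higher. Of 11901 genes tested, 587 were higher (4.93%) and 153 lower (1.29%) in S-phase cells (edgeR quasi-likelihood test on counts summed per tumour, n = 3 pairs, Benjamini-Hochberg adjusted p under 0.05, the 19 rule genes left out). Every fold change and adjusted p below comes from this test. An error is a standard error derived from it, the absolute log2 fold change divided by the square root of the test's F statistic. The replication genes share a programme with the genes that chose the cells, so their counts describe what the rule picks up and are read beside these shares and beside the median log2 fold change over all genes, which was -0.06. Both counts moved with single tumours, to 229 and 52 without tumour 1, 1039 and 529 without tumour 2, and 194 and 43 without tumour 4. Under the lineage limits they were 742 and 480 of 9285 tested. Adjusted p in that edgeR fit were far smaller, although it held fewer cells and the same n = 3 pairs. For Gmnn it was 4.9e-114, against 2.7e-14 in the main fit at nearly the same fold change. The reason was not tested, so added calls under the lineage limits are not read as firmer than the main calls.

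Origin licensing was high in all 3 tumours. Of the 20 genes on the list, 19 could be tested, 15 were higher and none lower, with a median log2 fold change of 2.57. Their summed level was 1335, 1326 and 1268 CPM in S-phase cells of tumours 1, 2 and 4 and 279, 186 and 239 in comparison cells, 4.78, 7.13 and 5.31 times as much. Mcm3, a subunit of the helicase, was at 109, 100 and 108 in S-phase cells and at 11.7, 2.70 and 8.43 in comparison cells. Its log2 fold change was 3.55 ± 0.24 (adjusted p = 5.2e-13), and the lowest S-phase value lay far above the highest comparison value. Cdc6, the loading factor, was at 37.6, 25.03 and 33.3 against 1.99, 0.225 and 1.36 (4.49 ± 0.36, adjusted p = 1.6e-11), the tumour 2 value resting on 2 UMIs. Mcm10, which helps to fire the helicase, had the largest change of the list (4.71 ± 0.39, adjusted p = 3.1e-11), with 29.9, 50.1 and 37.8 against 2.12, 0.676 and 0.873. Gmnn, the inhibitor of Cdt1 that accumulates after licensing, rose with them (3.54 ± 0.21, adjusted p = 2.7e-14). Without tumour 1, 2 or 4 the count of higher genes was 13, 15 or 11, and with the lineage limits 14 of 16.

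At the replication fork, all 30 tested genes of a list of 32 were higher, with a median log2 fold change of 2.47. Gins3 and Ticrr were too low to test. Pcna, the sliding clamp, was at 252, 488 and 199 CPM in S-phase cells and at 37.3, 69.5 and 27.4 in comparison cells (2.71 ± 0.23, adjusted p = 3.3e-11). Lig1, which seals Okazaki fragments, was at 182, 288 and 142 against 21.8, 9.12 and 15.5 (3.37 ± 0.24, adjusted p = 8.4e-13). In both genes the classes did not overlap in any pair of tumours. Pole2, a subunit of polymerase epsilon, had the largest change (4.25 ± 0.46, adjusted p = 9.7e-09) on 19, 2 and 19 UMIs in S-phase cells. The count of higher genes was 23 without tumour 1, 32 without tumour 2, 18 without tumour 4 and 29 of 29 with the lineage limits.

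Nucleotide supply followed with smaller changes. Of 22 genes 13 were higher and none lower, and the median log2 fold change was 0.95. Tyms, thymidylate synthase, was at 178, 50.1 and 140 CPM against 20.4, 4.95 and 13.1 (3.24 ± 0.22, adjusted p = 3.2e-13). Tumour 2 was the lowest in both classes, and the classes did not overlap. Rrm1, the partner of Rrm2, changed by 2.89 ± 0.23 (adjusted p = 1.4e-11) and Dut, which removes dUTP, by 2.63 ± 0.26 (adjusted p = 1.1e-09). Rrm2b, the reductase subunit that is not tied to S phase, stood at -0.40 and did not pass, and neither did Impdh1 (0.02), Impdh2 (0.30) or Samhd1 (-0.18). Fewer passed without tumour 1 (6) or tumour 4 (6), and 16 passed without tumour 2 and 15 with the lineage limits.

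Among the regulators, the E2F and cyclin E genes rose and the pocket proteins split. Of 19 tested genes 13 were higher and none lower, with a median of 2.10. E2f1, an activator, was at 80.1, 150 and 74.8 CPM against 6.24, 4.39 and 3.85 (4.07 ± 0.24, adjusted p = 2.5e-14), with no overlap between the classes. Ccne2, a cyclin E, was at 22.2, 62.6 and 35.6 against 1.06, 1.91 and 2.39 (4.15 ± 0.36, adjusted p = 7.1e-11), and E2f7 and E2f8, repressors of the same targets, rose by 3.35 and 3.63, E2f7 being at 0 in the S-phase cells of tumour 2. Rbl1, the pocket protein p107, was higher (2.10), while Rb1 (0.39, adjusted p = 0.61) and Rbl2 (-0.09) did not pass. Cyclins D and their kinases were not called: Ccnd1 stood at 0.52, Ccnd2 at 0.77, Ccnd3 at 0.57, Cdk4 at 0.51 and Cdk6 at 0.57. Of the 8 tested genes of that list 3 were higher at an unadjusted p under 0.05, and DESeq2 called 0. The list's summed level was 1.04, 6.44 and 1.04 times that of comparison cells in tumours 1, 2 and 4. Its median log2 fold change was 0.52, and 0.17 with the lineage limits. Ccnd2 was lower in the S-phase cells of tumours 1 and 4 (284 and 244 CPM against 468 and 298). It was higher only in tumour 2 (2628 against 118). Of 15 inhibitors and antiproliferative genes 1 was higher, Cdkn2c (1.06 ± 0.23, adjusted p = 0.0020), and 2 were lower, Cdkn2b (-1.54) and Ccng1 (-1.07). None of these 3 calls remained without tumour 1 (adjusted p = 0.45, 0.26 and 0.21) or without tumour 4 (0.82, 0.56 and 1.0). All 3 were called with the lineage limits, where the counts were 2 higher and 7 lower of 15. Cdkn2d (0.58) was then the other higher gene, and Gadd45b (-0.75), Gadd45g (-0.65), Btg2 (-0.53), Cdkn2a (-0.43) and Cdkn1a (-0.42) the other lower genes. Without tumour 1, 2 or 4 the first list had 10, 15 or 9 higher genes, and 13 with the lineage limits.

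Chromatin assembly at the fork rose as well. Of 19 genes 16 were higher and none lower, with a median of 1.91. Chaf1b, a subunit of the CAF-1 histone chaperone, was at 38.6, 75.1 and 94.8 CPM against 4.91, 5.52 and 6.33 (3.52 ± 0.25, adjusted p = 1.3e-12). Dnmt1, the maintenance DNA methyltransferase that works with Uhrf1, was at 97.5, 138 and 115 against 24.7, 16.7 and 32.2 (1.99 ± 0.21, adjusted p = 9.7e-09). Both genes were higher in the S-phase cells of every tumour. Of 9 tested genes of the Polycomb complex PRC2, whose methylation of histone H3 is blocked by the K27M change, and of the demethylases of that mark, 4 were higher and none lower. Its catalytic subunit Ezh2 was at 155, 138 and 118 against 39.4, 33.1 and 27.05 (1.99 ± 0.21, adjusted p = 3.7e-09) and remained called without each tumour. Suz12 (0.98), Mtf2 (0.80) and Phf19 (2.25) were called too, but not without tumour 1 (adjusted p = 1.0, 0.64 and 0.16) or tumour 4 (0.77, 0.58 and 1.0). Ezh1 stood at -0.88 and Eed at 0.53, neither passing. The list split under the lineage limits, with Ezh2, Suz12 and Mtf2 higher and the demethylase Kdm6b (-0.81) and the PRC2 cofactor Jarid2 (-0.78) lower. The chromatin list had 10 higher genes without tumour 1, 17 without tumour 2, 10 without tumour 4 and 16 with the lineage limits.

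Replication-dependent histones did not move as a block, and their values need care. The 3′ kit captures polyadenylated RNA, histone mRNAs of S phase mostly lack a poly(A) tail, and near-identical copies can share reads. Of 68 genes 20 could be tested: 4 were higher and 3 lower. Hist1h1b, a linker histone, was at 24.1, 25.03 and 11.9 CPM against 1.28, 0.338 and 0.355 (4.62 ± 0.47, adjusted p = 3.7e-09). Hist1h2ap was at 576, 601 and 51.9 against 75.8, 15.6 and 8.40 (3.38 ± 0.30, adjusted p = 1.9e-10), so tumour 4 held less of it in both classes. Hist1h2ae (1.90) and Hist1h1e (2.06) were the other two higher genes, the last not without tumour 4 (adjusted p = 0.068). Hist3h2a (-1.07), Hist1h4i (-0.92) and Hist1h2bc (-0.77) were lower, and the count of lower genes was 0 without tumour 1 and 0 without tumour 4. The list's median was -0.41, and 0.11 without tumour 2. Of 13 tested under the lineage limits 4 were higher and 6 lower.

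Checkpoint and repair genes showed some of the largest changes. Of 28 tested genes 23 were higher and none lower, with a median log2 fold change of 2.94. Ung, the uracil glycosylase that works behind the fork, was at 100, 125 and 69.7 CPM against 14.3, 0.901 and 6.27 (3.34 ± 0.29, adjusted p = 1.0e-10). Neil3, another DNA glycosylase, was at 68.5, 100 and 44.5 against 3.23, 1.24 and 1.07 (4.93 ± 0.30, adjusted p = 2.6e-14). In both the classes did not overlap. Rad51ap1, a gene of homologous recombination, rose by 4.36 ± 0.25 (adjusted p = 9.0e-15). Of 15 cohesion genes 6 were higher, led by the acetyltransferase Esco2 (4.45) and the clamp-loader subunit Dscc1 (4.37), and none was lower. Pds5b was called (1.73), but its 613 CPM in tumour 2 came from 49 UMIs, 42 of them in 1 cell, and it stood at 0.82 without tumour 2. The repair count was 18 without tumour 1, 28 without tumour 2, 18 without tumour 4 and 18 of 20 tested with the lineage limits, where 10 cohesion genes were higher.

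Over all genes named by size, the highest was 2810417H13Rik, the PCNA-associated factor also called Pclaf. It was at 799, 876 and 714 CPM in S-phase cells and at 37.7, 10.1 and 20.1 in comparison cells (5.15 ± 0.29, adjusted p = 6.9e-15). Tcf19 (4.38), Lrr1 (4.62) and Exo1 (4.40) completed the 10 highest, with Neil3, Mcm10, Hist1h1b, Cdc6, Esco2 and Dscc1 given above. Of the 60 higher genes named by rule, 52 kept their call without each of the 3 tumours. They were picked for large changes in the same direction in every tumour, which favours such a result. Of all 587 higher genes, 224, 580 and 190 were also called without tumours 1, 2 and 4.

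**Figure D2:**
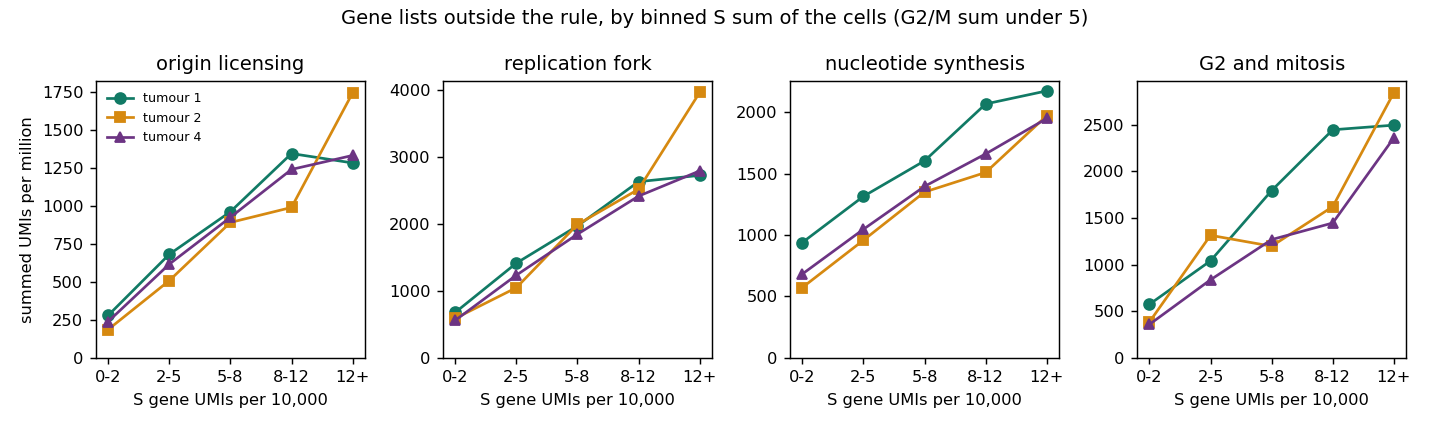
Summed CPM of 4 gene lists outside the rule (y axis, linear from 0) in cells binned by S sum (x axis, UMIs per 10000, G2/M sum under 5), with 1 line per tumour. Licensing genes stood at 246 over all cells below 2, 647 from 2 to 5, 944 from 5 to 8, 1283 from 8 to 12 and 1342 above 12, and the tumour 2 bins from 5 upward hold 6 cells each.

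Across these bins the licensing genes climbed from the comparison cells through the cells of intermediate S sum. Between the last 2 bins the pooled level was 1283 and 1342 CPM, with 991 and 1746 in tumour 2 and 1346 and 1284 in tumour 1. The mitosis genes outside the rule climbed too, from 439 below a sum of 2 to 1906 at 8 to 12 and 2430 above 12, although every cell in these bins had a G2/M sum under 5. These bins share the cells and the S genes of the rule, so they are a description without a test.

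Genes of G2 and mitosis were also higher in S-phase cells than in comparison cells. Of 39 tested genes outside the rule 35 were higher and none lower, with a median log2 fold change of 2.76. Top2a was at 295, 375 and 234 CPM against 30.9, 6.30 and 14.3 (4.05 ± 0.29, adjusted p = 1.3e-12). Cdk1, the kinase of mitosis, was at 155, 113 and 107 against 22.1, 2.59 and 7.95 (3.40 ± 0.26, adjusted p = 4.2e-12). Both genes were well above the comparison cells in every tumour. Ccnb2 was closer, with 33.8, 12.5 and 15.6 against 11.9, 1.91 and 7.85 (1.28 ± 0.31, adjusted p = 0.0051), the tumour 2 value being 1 UMI. The proliferation marker Mki67 rose by 2.85 ± 0.24 (adjusted p = 3.0e-11). Without tumour 1, 2 or 4 the count was 25, 38 or 23, and with the lineage limits 31 of 32.

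Against G2/M cells the replication lists had positive median changes and the mitosis list a negative one. The G2/M sum itself set these classes apart, and only the S-phase cells had to reach the S limit. A split between genes that share a programme with the rule genes is therefore largely built into the choice of cells. The counts and adjusted p of these lists against G2/M cells describe what the rule picks up. Of 9252 genes tested with the same model, 220 were higher (2.38%) and 236 lower (2.55%) in S-phase cells, and the median log2 fold change was -0.00. Without tumour 1, 2 or 4 the counts were 43, 455 or 41 higher and 91, 405 or 79 lower. The same S-phase counts stand in both comparisons, so the values are set side by side and not correlated. Of 9235 genes tested in both, 127 were higher in each, 85 were higher than in comparison cells but lower than in G2/M cells, and 27 were lower in each.

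The mitosis list went the other way, with 38 of 40 tested genes lower than in G2/M cells, none higher, and a median of -1.45. Ccnb2 was at 184, 94.0 and 155 CPM in G2/M cells (-2.83 ± 0.21, adjusted p = 1.0e-11). Cdc25c, the phosphatase that opens mitosis, was at 9.65, 12.5 and 6.67 in S-phase cells against 67.3, 55.7 and 54.0 (-2.86 ± 0.29, adjusted p = 1.2e-08). Top2a was nearer, at 504, 432 and 371 in G2/M cells (-0.63 ± 0.14, adjusted p = 0.0036). The lowest value was that of Cdkn3, a phosphatase of Cdk1 and Cdk2, at 0.965, 0 and 1.48 against 16.3, 40.6 and 32.4 (-4.37 ± 0.52, adjusted p = 2.3e-07). Its S-phase cells held 3 UMIs in all, and the comparison cells were as low, at 1.02, 1.46 and 2.00. Pif1 (-3.74), Gas2l3 (-3.20) and Kif23 (-2.75) completed the 6 lowest with Ccnb2 and Cdc25c. The count of lower mitosis genes was 23, 40 and 21 without tumours 1, 2 and 4.

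Licensing genes stayed higher, with 11 of 17 tested above G2/M cells and a median of 1.02. Cdc6 led them, at 4.06, 5.80 and 3.85 CPM in G2/M cells (3.10 ± 0.29, adjusted p = 2.6e-09). Mcm3 was at 38.8, 12.8 and 34.9 (1.64 ± 0.18, adjusted p = 6.6e-08), and Mcm6 was at 124, 163 and 135 in S-phase cells and 46.5, 17.4 and 46.6 in G2/M cells (1.59 ± 0.18, adjusted p = 6.6e-08). None of these overlapped between the classes. Dbf4, the activator of the Cdc7 kinase, was the exception, at 35.7, 25.03 and 40.8 against 76.3, 145 and 80.6 (-1.11 ± 0.19, adjusted p = 0.00018). The counts were 6, 12 and 6 without tumours 1, 2 and 4, and Dbf4 was not called without tumour 1.

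Of 31 fork genes 21 were higher than in G2/M cells and none lower, with a median of 0.87. Pcna was at 104, 137 and 94.9 CPM in G2/M cells (1.28 ± 0.14, adjusted p = 7.2e-08). In repair, 12 of 23 were higher and none lower. Ung stood out by size, at 15.6, 8.12 and 7.14 in G2/M cells (3.01 ± 0.21, adjusted p = 3.8e-12), near the comparison cells in tumours 1 and 4. Neil3 differed little, at 57.3, 130 and 36.5 in G2/M cells (0.19 ± 0.19, adjusted p = 0.70). Of 22 nucleotide genes 9 were higher, among them Tyms (1.04 ± 0.15, adjusted p = 4.9e-06), which was not called without tumour 1 (adjusted p = 0.28) or tumour 4 (0.31). The counts of higher genes without tumours 1, 2 and 4 were 6, 25 and 7 for the fork, 3, 14 and 1 for repair, and 1, 10 and 1 for nucleotides.

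The cyclins divided by phase. Ccne2 was at 3.18, 22.1 and 5.83 CPM in G2/M cells (2.52 ± 0.29, adjusted p = 1.8e-07) and E2f1 at 18.7, 32.5 and 16.0 (2.17 ± 0.19, adjusted p = 4.1e-10). Ccna2, the cyclin A of S phase and G2, went the other way, at 95.5, 50.1 and 38.5 in S-phase cells against 170, 173 and 145 (-1.34 ± 0.18, adjusted p = 3.6e-06), a call lost without tumour 4 (adjusted p = 0.078). The list gave 7 higher and 1 lower of 19. Hmgb2, a DNA-bending protein, was likewise lower (-0.89 ± 0.13, adjusted p = 9.2e-06), while Chaf1b (1.78) and Slbp (0.83), the histone mRNA binding protein, were higher, the chromatin list giving 7 higher and 1 lower of 18. None of the 8 tested genes of the PRC2 list passed by edgeR or DESeq2 (2 were lower at an unadjusted p under 0.05), and Ezh2 stood at 0.09 (adjusted p = 0.83). Alkbh2 (2.02) and the transcription factor Myb (2.23) were the remaining genes of the 6 highest. Without tumours 1, 2 and 4 the E2F list had 3, 9 and 2 higher genes and the chromatin list 2, 8 and 1.

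**Figure D3:**
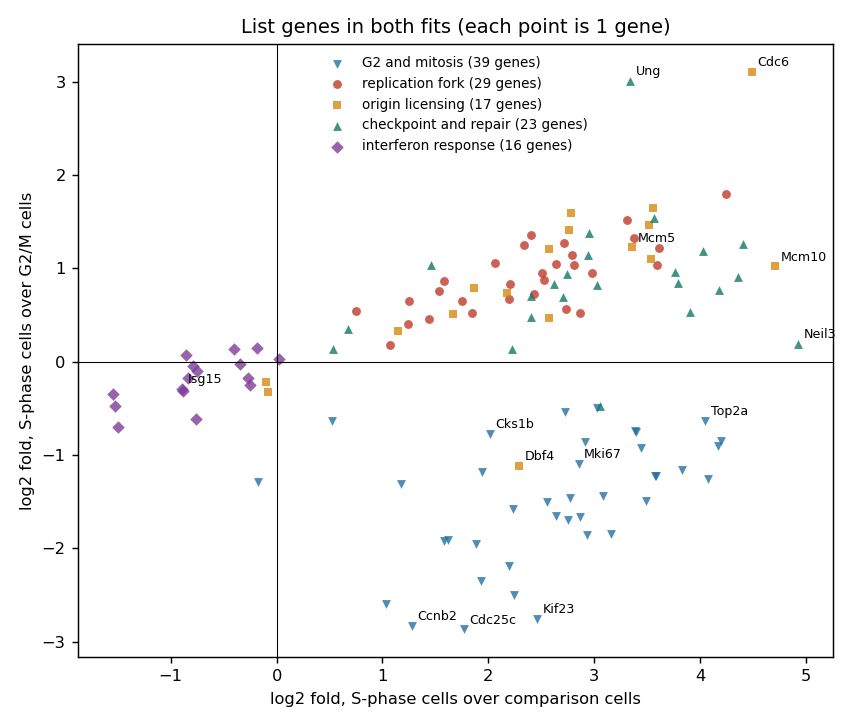
Log2 fold change of S-phase cells over comparison cells (x axis) and over G2/M cells (y axis) for the genes of 5 lists that were tested in both fits, with 1 point per gene. Mitosis genes lie at the lower right, Ung and Cdc6 (3.01 and 3.10 on the y axis) at the top, and the 2 axes share the S-phase counts.

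**Figure D4:**
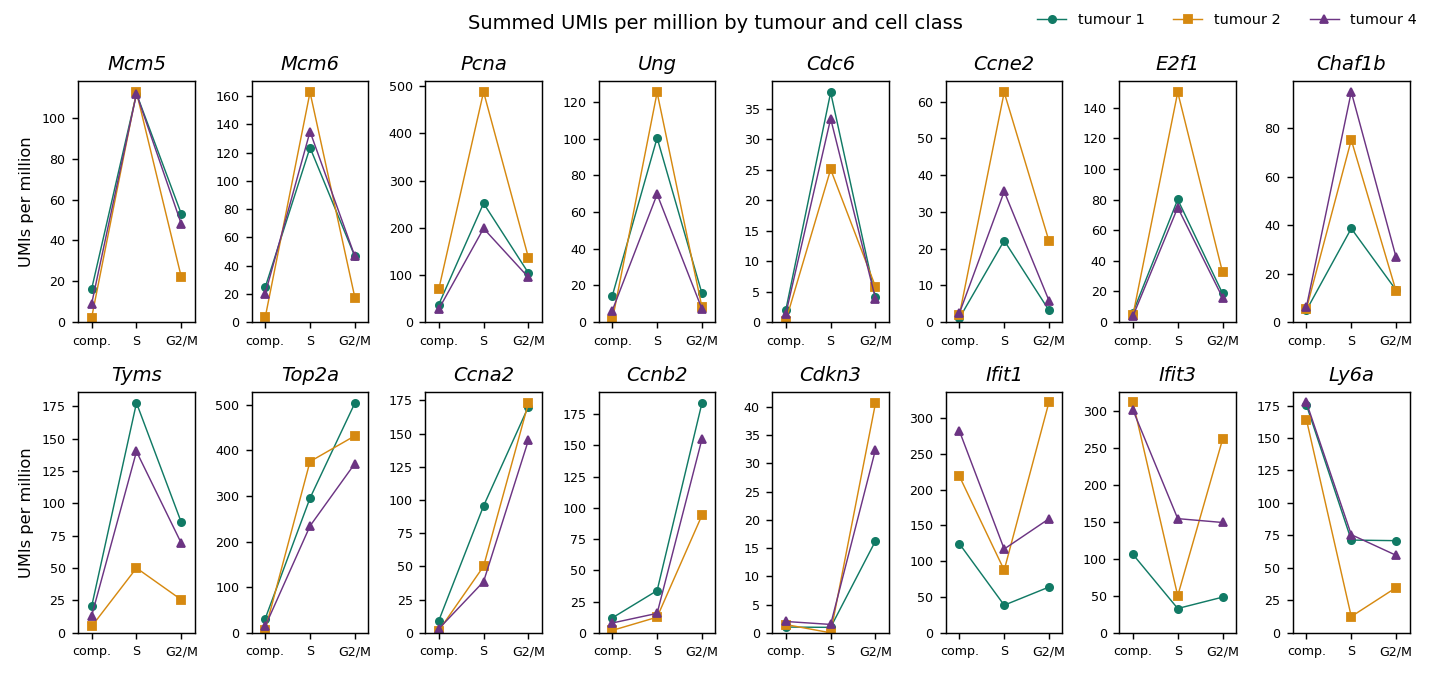
CPM (y axis, linear from 0, own scale per gene) in comparison, S-phase and G2/M cells, with 1 line per tumour. Mcm5, Ung, Cdc6 and E2f1 peak in S-phase cells in all 3 tumours, Ccnb2 and Cdkn3 peak in G2/M cells, and Ly6a is highest in comparison cells.

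Some genes of damage response and growth arrest were lower than in G2/M cells: of 15 inhibitors and antiproliferative genes 7 were lower and none higher. With the lineage limits 5 of 15 were lower. The list's summed level was 0.756, 0.384 and 0.665 times that of G2/M cells in tumours 1, 2 and 4. Cdkn1a, the inhibitor p21, was at 122, 250 and 221 CPM in S-phase cells and at 193, 2151 and 404 in G2/M cells (-1.27 ± 0.22, adjusted p = 0.00014). Mdm2, the ligase that degrades p53, was at 37.6, 12.5 and 29.6 against 45.5, 873 and 55.5 (-1.29 ± 0.30, adjusted p = 0.0054). In both the G2/M cells of tumour 2 were far above every other class, and with the progenitor and myelin limits Mdm2 was at -0.65 (adjusted p = 0.063). Without tumour 2, Cdkn1a was at -0.77 and Mdm2 at -0.60, both still called. Against comparison cells neither was called, Cdkn1a standing at -0.26 and Mdm2 at -0.44. DESeq2 did not call Cdkn1a (adjusted p = 0.073) or Mdm2 (1.0) against G2/M cells.

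Few identity genes were called between S-phase and comparison cells. None of 12 oligodendrocyte progenitor markers, 14 tested stem and progenitor genes, 9 committed progenitor genes or 10 astrocyte markers was called by edgeR or DESeq2. At an unadjusted p under 0.05 these lists held 3, 2, 1 and 1 genes. Under the lineage limits 1 gene of each was called, Cacng4 higher (0.44) and Id3 (-0.59), Gpr17 (-0.54) and Aqp4 (-1.70) lower. The summed levels of these lists still differed in tumour 2, where S-phase cells held 1.42, 2.69, 0.412 and 2.78 times those of comparison cells, in the order given. In tumour 1 the ratios were 0.998, 0.790, 1.06 and 0.702, and in tumour 4 they were 1.02, 0.904, 0.935 and 1.06. Olig1 was at 1179, 1464 and 1757 CPM in S-phase cells against G2/M cells at 810, 536 and 1137 (0.80 ± 0.14, adjusted p = 0.00018), and stood at 0.11 against comparison cells. C1ql1 (1.11) and Matn4 (0.92) were the other progenitor markers above G2/M cells, and without tumour 1 neither was called (adjusted p = 0.27 and 0.69), and with the progenitor and myelin limits Olig1 was not (0.053). Of 14 myelin genes 2 were lower than in comparison cells, Gjb1 (-1.22) and Mog (-1.66), beside the myelin RNA of the tumour 2 reference given above. Summed myelin genes were at 1529, 4530 and 5028 in S-phase cells and at 1220, 48329 and 4995 in comparison cells, 0.0937 times as much in tumour 2 but 1.25 and 1.01 times in tumours 1 and 4. Without tumour 1 there were 11 lower myelin genes, without tumour 4 there were 7, and without tumour 2 there were 2, beside 3 higher, Gjb1 then standing at -0.61. With the lineage limits 3 of 10 were lower.

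A few neuronal cytoskeleton genes were lower than in both references. Nefm, a neurofilament subunit, was at 55.0, 25.03 and 27.4 CPM in S-phase cells, 131, 42.3 and 78.1 in comparison cells and 148, 69.6 and 106 in G2/M cells. The log2 fold changes were -1.37 ± 0.24 (adjusted p = 8.3e-05) and -1.65 ± 0.18 (adjusted p = 7.3e-08). Within each tumour the S-phase value of Nefm was lowest, that of tumour 2 resting on 2 UMIs. Over the whole list the S-phase cells held 0.453, 1.58 and 0.698 times the summed level of comparison cells in tumours 1, 2 and 4. Nefl (-1.35) and Tubb3 (-1.16) were also lower than in comparison cells, the other 6 of 9 tested neuronal markers not passing, while 5 of 8 were lower with the lineage limits. In the S-phase cells of tumour 2, Nefl had 0 UMIs and Tubb3 had 3. Against comparison cells Nefm was not called without tumour 1 (adjusted p = 0.29) or 4 (0.39), while the fold stayed between -1.46 and -1.30.

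Interferon response genes were lower than in comparison cells: 8 of 16 passed and none was higher, with a median of -0.78. Ifit3 was at 32.8, 50.1 and 154 CPM in S-phase cells and 106, 312 and 301 in comparison cells (-1.55 ± 0.28, adjusted p = 0.00013). Ifit1 was at 38.6, 87.6 and 117.1 against 125, 219 and 282 (-1.50 ± 0.25, adjusted p = 5.5e-05). Both were lower in every tumour, the classes overlapping across tumours for Ifit3 and not for Ifit1. The other 6 were Gbp2 (-1.52), Isg15 (-0.89), Oasl2 (-0.88), Usp18 (-0.83), Ifit2 (-0.79) and Bst2 (-0.75), and Irf1 (-0.25) did not pass. The per-cell median of the summed list was 24.7, 25.5 and 65.1 UMIs per 10000 in S-phase cells of tumours 1, 2 and 4. In comparison cells it was 31.3, 20.9 and 72.8, so in tumour 2 the S-phase median was the higher. With both classes limited by lineage markers 11 of 16 were lower, with a median of -0.60. Without tumour 1, 2 or 4 the count was 1, 11 or 4, DESeq2 gave 3, and Ifit1 was not called without tumour 1 (adjusted p = 0.065). Against G2/M cells 1 of 16 passed, Ifit1 (-0.70), which did not without tumour 1 (adjusted p = 0.21), and the median was -0.17.

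Some surface and matrix genes were lower too. Ly6a, an interferon-inducible surface protein, was at 71.4, 12.5 and 75.6 CPM in S-phase cells and 175, 164 and 177 in comparison cells (-1.47 ± 0.27, adjusted p = 0.00020). The classes did not overlap, and the call remained without each tumour. Against G2/M cells, at 70.9, 34.8 and 59.7, it was not called (0.15). Ly6c1 fell as well (-1.55), but not without tumour 1 (adjusted p = 0.085) or 4 (0.22). Of 9 genes of MHC class I presentation 1 passed, B2m (-0.52 ± 0.13, adjusted p = 0.0064), which was not called with the lineage limits (-0.25, adjusted p = 0.44), without tumour 1 (adjusted p = 0.17) or without tumour 2 (0.17). H2-T23 (-0.54) was the 1 gene of that list called with the lineage limits. Of 12 mesenchymal genes 3 were lower, Lgals3 (-1.27), Anxa2 (-1.14) and S100a11 (-0.87), none of which was called without tumour 1 (adjusted p = 0.068, 0.35 and 0.63) or 4 (0.12, 0.092 and 0.39). With the lineage limits 6 of 11 mesenchymal genes were lower.

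**Figure D5:**
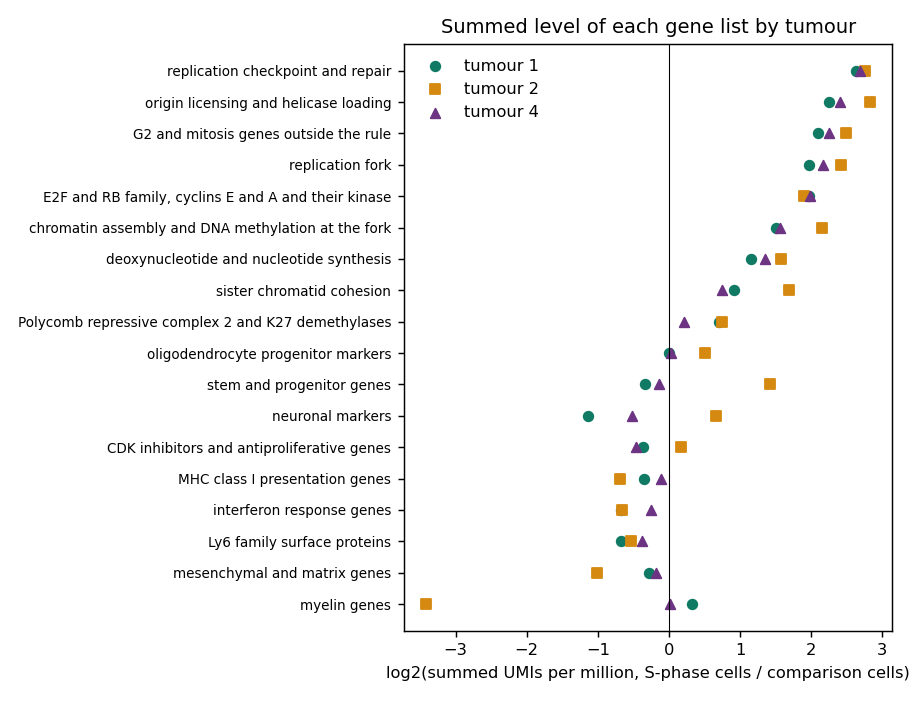
Summed CPM of each gene list in S-phase cells over comparison cells (x axis, log2 ratio), with 1 point per tumour. The 8 lists at the top are higher in every tumour, and the myelin point of tumour 2 lies far to the left. Interferon response genes (ratios 0.628, 0.633 and 0.839) and the MHC class I, Ly6 and mesenchymal lists are lower in every tumour.

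Several of the 10 lowest genes against comparison cells rested on 1 barcode or 1 tumour. The haemoglobin genes Hbb-bs (-4.53) and Hba-a1 (-4.48) rested on 1 barcode of the tumour 1 comparison cells, in which 80.1% of 11365 UMIs were haemoglobin. Without it they were at -0.84 and -0.57 and did not pass (adjusted p = 0.53 and 0.80). Mgp, Csn3 and Cdc42ep2 were highest in the tumour 2 comparison cells (391, 189 and 117.3 CPM), and none passed without tumour 2 (adjusted p = 0.11, 0.34 and 0.31). Hspb1, a small heat shock protein, was at 6.76, 50.1 and 5.93 against 51.9, 73.5 and 34.4 (-2.47 ± 0.35, adjusted p = 2.6e-06), and missed the threshold without tumour 1 (0.060). Ucn2 (-2.90) and Nov (-2.18) did so without tumour 4 (adjusted p = 0.67 and 0.056). Spp1, osteopontin, was at 19.3, 0 and 5.93 against 73.5, 179 and 25.7 (-2.28 ± 0.32, adjusted p = 2.6e-06) and was called without each tumour. Of the 32 lower genes named by rule, 4 kept their call without each tumour. Of all 153 lower genes, 23, 138 and 25 were also called without tumours 1, 2 and 4.

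None of the 4 engineered genes was called between the classes in the fit of all cells. H3f3a was at 1491, 1602 and 1427 CPM in S-phase cells and at 1508, 858 and 1281.5 in comparison cells (log2 fold change 0.22), a count that cannot tell the altered from the normal allele and may be shared with near-identical copies. Pdgfra was at 118.7, 25.03 and 73.4 against 118.8, 24.99 and 75.0 (-0.04), and Trp53 at 162, 125 and 109 against 117.5, 60.8 and 81.5 (0.47 ± 0.23, adjusted p = 0.28). Trp53 was called with the lineage limits (0.46, adjusted p = 0.013), and 1 of the 4 genes was higher without tumour 2. The transgene element WPRE was at 553, 688 and 781 against 581, 372 and 833 (0.10). In the fits of all cells DESeq2 called none against either reference either, and 1 and 0 of the 4 had an unadjusted p under 0.05.

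The 12 S-phase cells of tumour 2 differed from those of the other tumours in several genes, given here as values because 1 library each allows no test. Ccnd2 was at 2628 CPM there and at 284 and 244 in tumours 1 and 4. Its 210 UMIs lay in 11 of the 12 cells, 86 of them in 1 cell. It was called against G2/M cells (1.09, adjusted p = 0.0088) but not without tumour 2 (0.29, adjusted p = 0.086). Dnajb1, a chaperone of the heat shock response, was at 1552 against 64.7 and 68.9, and it was also high in the other classes of tumour 2, at 515 in comparison cells and 586 in G2/M cells. The interneuron genes Gad2, Dlx1 and Dlx2 were at 138, 113 and 125, in 3, 2 and 3 of the 12 cells, and Dlx1 was at 0 in the S-phase cells of the other tumours. The tumour 2 comparison cells held them too, at 26.9, 17.3 and 23.9, above the comparison cells of tumours 1 and 4. Gad1 had 0 UMIs in the 12 S-phase cells of tumour 2 and was at 7.54 CPM in its comparison cells. That level is below the 12.5 CPM of 1 UMI in those 12 cells, so no direction can be read for Gad1. In all, 79910 UMIs stood behind the tumour 2 cells, against 1036230 and 1349535, so 1 UMI there was worth 12.5 CPM.

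The 6 genes outside the rule that followed the summed S genes most closely were taken over the 9 sums of 3 tumours and 3 classes, by Pearson's r of log2 CPM. They were Chek1 (0.994), Tipin (0.994), Fignl1 (0.993), 2810417H13Rik (0.991), Mcm7 (0.991) and Mcm10 (0.990). Chek1, the checkpoint kinase, was at 27.99, 37.5 and 25.2 in S-phase cells, 16.5, 17.4 and 17.0 in G2/M cells and 4.47, 1.13 and 4.27 in comparison cells. Its order, S-phase above G2/M above comparison cells, was the same in each tumour. A gene chosen for its likeness to the summed S genes over these sums is bound to follow their order closely. The 9 sums share tumours and libraries, so r is a description.

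The promoter windows differed between lists in the letters shown above. An E2F match was found in 9 of 23 promoters of the licensing genes (39.1%), 9 of 29 of the fork genes (31.0%) and 8 of 20 of the E2F and cyclin genes (40.0%). The share was 1 of 24 for nucleotide genes (4.17%), 1 of 38 for mitosis genes (2.63%) and 744 of all 32851 promoters of the table (2.26%). Licensing, fork and E2F genes thus held these letters more often than the table as a whole, and nucleotide and mitosis genes about as often, on 1 promoter each. Other lists above the table included cohesion (33.3%), PRC2 (30.0%), repair (16.7%), interferon (11.8%) and chromatin genes (9.52%), so the letters did not mark the first lists alone. Of the promoters of genes higher than in comparison cells 16.8% held a match, of those lower 0.625%, and of all tested 3.99%. Ung, E2f1, Ccne1, Pcna and Rrm2 had none of these exact letters in the window, which says nothing on whether E2F acts there. TTTGAA was found in 26 of 38 mitosis promoters (68.4%) against 17.9% of all promoters, and CCAAT in 29 of 38 (76.3%) against 37.4%. CCAAT was also frequent in other lists, with 60.9% of licensing, 61.9% of chromatin, 41.4% of fork and 70.0% of neuronal promoters, and so did not mark the mitosis genes alone. Among genes lower than in G2/M cells 39.1% of promoters held TTTGAA, among those higher 10.4%, and among all genes tested in that comparison 11.6%. The share of the higher genes was thus near that of the tested genes. A gene can have several promoters in the table, and of the lists 18 of 20 licensing, 24 of 32 fork and 34 of 40 mitosis genes were matched by symbol.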

How the data were processed

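Single-cell RNA counts were taken from the 3 tumours as deposited by the authors: integer counts of UMIs for 27999 entries in each barcode table, on build mm10, with Cell Ranger 1.3.0 and STAR 2.5.1 named per the submitters' processing notes. Normalized tables of the same cells were not used. The members and gene lists were chosen with earlier results of these data known. Barcodes below 500 genes or above 20% mitochondrial UMIs were left out (25, 84 and 247). Counts were summed per tumour and class and tested with edgeR 4.0.16 in R 4.3.3 (quasi-likelihood test, TMM, filterByExpr, tumour as a block, Benjamini-Hochberg, threshold 0.05), leaving out the 19 rule genes. The block pairs classes of the same tumour, animal and library. The replicate is the tumour (n = 3). Levels are CPM of a class's summed UMIs. The limit of 15 on myeloid UMIs was also set on the comparison cells. The method was tested on simulated data.

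Genes were named by a rule: for each list up to 6 called genes with the largest change against comparison cells and up to 4 against G2/M cells, in the same direction in every tumour, and, among genes with at least 20 CPM, the 10 highest and 10 lowest against comparison cells and the 6 highest and 6 lowest against G2/M cells. The rule genes, the engineered genes and the 6 most alike genes were added. Other genes were named after their values were seen, among them Pcna, Cdk1, Mki67, Dbf4, Dnmt1, Top2a, Chek1, Dlx1, genes that did not pass, and the genes of tumour 2. Alternatives were DESeq2 1.42.0 and its size factors, no filter on low counts, no block, each tumour left out, S limits of 12 and 5, cells thinned to 5000 UMIs, cells chosen on one random set of UMIs and tested on the other, lineage limits, no myeloid limit on comparison cells, stricter cell filters (1000 genes, 10% mitochondrial UMIs) and doublet scores. Scrublet called 0, 7 and 0 cells and was taken not to have worked, so doublets were not removed. A few genes that the rule or the lists hold are not reported here. Intervals cover counting error only.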

Additional observations from a re-analysis of the deposited data

How the results depend on the processing

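Against comparison cells the main counts were 587 higher and 153 lower genes. Higher genes numbered 363 with DESeq2, 124 with no replicate block, 320 at an S limit of 12, and 194 to 1039 leaving out 1 tumour. Lower genes numbered 26 with DESeq2, 252 without the low-count filter, 0 with no replicate block, 480 with the lineage limits, 444 with no myeloid limit on comparison cells, and 43 to 529 leaving out 1 tumour. Higher genes were 79.3% of calls, 93.3% with DESeq2, 60.7% with the lineage limits, 66.3% without tumour 2, 69.3% without the low-count filter, 61.6% with no myeloid limit and 100.0% with no block. Against G2/M cells 220 were higher and 236 lower. Higher genes numbered 51 with DESeq2, 0 with no replicate block, 41 at a limit of 12, 114 after thinning, 123 when chosen and tested on separate UMIs, and 41 to 455 leaving out 1 tumour. Lower genes numbered 88 with DESeq2, 0 with no replicate block, 59 at a limit of 12, and 79 to 405 leaving out 1 tumour. With no block, 724 and 309 genes had an unadjusted p under 0.05 in edgeR. The cause of these shifts was not tested, beyond the fewer samples, cells or UMIs that some alternatives hold by construction.

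Shares of S-phase cells in tumours 1, 2 and 4 were 0.387%, 0.388% and 0.937% at a limit of 12, 5.33% and 5.39% in tumours 1 and 4 at a limit of 5, and 3.70% and 3.74% in tumours 1 and 4 after thinning. Dnajb1 against G2/M cells, 0.62 in the main fit, was -0.16 at a limit of 12 (adjusted p = 0.93). Leaving out the haemoglobin barcode was chosen after seeing the data. Tumour 2, with 12 S-phase cells, limits the depth of every comparison.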
